A study of Mus musculus with 2 samples.

Results

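The SLAM family is a group of cell surface receptors of the immunoglobulin superfamily, and 6 of its genes were described here: Ly9, Slamf7, Cd48, Slamf1, Cd84 and Slamf6. They lie one after another on mouse chromosome 1 over 360 kb, in the order given. They were chosen by name, as 6 of the 21631 protein-coding RefSeq genes considered. A peak was assigned to a gene when its summit, the position of highest signal, fell inside the gene or within 10 kb of either end. By this rule the 6 genes held 17 of the 44058 peaks of the optimal list. That list was made with the irreproducible discovery rate (IDR), a measure of how well peaks recur between replicates. A place in it does not mean a summit in each replicate: of the 17, 15 had a summit of both within 100 bp.

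The data are IRF4 ChIP-seq, in which DNA bound by the transcription factor IRF4 is pulled down with an antibody and sequenced. The cells were CH12.LX, an immortalized B-cell lymphoma line from a female mouse of strain B10.H-2aH-4bp/Wts. The labels give 1 group of 2 biological replicates of this 1 line, name no treatment and mention a separate control experiment. That experiment was not itself analysed here, but the deposited mm10 lists were made from the alignments and 1 more file. With 1 group nothing was tested between conditions, so the values below are descriptions, set beside all peaks or all genes. The replicate spread is that of 2 samples whose separate culture is not stated.

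Most SLAM receptors bind a copy of themselves on a neighbouring cell. Their tails carry tyrosine motifs that recruit the adaptors SAP, encoded by Sh2d1a, and EAT-2, encoded by Sh2d1b1. Cd48 differs: it is anchored in the membrane by a lipid, has no tail, and is the ligand of the receptor encoded by Cd244a. IRF4 is a factor of activated B cells and plasma cells that binds DNA weakly alone and occupies composite sites with ETS factors such as PU.1 or with BATF and JUN proteins.

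The binding sites differed in sequence, so those that carry the account are shown first. The Cd48 intron window is the sequence under the strongest member peak of the mm9 list, and the Slamf6 intron window is that under the next strongest. The Slamf6 stretch near the gene start holds the only ETS-IRF composite element matched at a member summit, 1 of 9, against 8.68% of all mm9 summits. The Cd84 stretch holds the only PU.1 site, 1 of 9, against 4.93%. Single matches at 9 summits set the members apart from neither share. The summits of these Slamf6 and Cd84 stretches lie in annotated untranslated sequence. In the mm9 list this Slamf6 peak had a signal of 97.3, and the Cd84 peak had 44.5, below the list median of 70.1. All were read from the mm9 genome (plus strand), with matches to the motifs searched in capitals.

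Cd48 intron, chr1:173615167-173615267: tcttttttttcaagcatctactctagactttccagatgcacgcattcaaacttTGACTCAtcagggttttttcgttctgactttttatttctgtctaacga
Slamf6 intron, chr1:173851225-173851325: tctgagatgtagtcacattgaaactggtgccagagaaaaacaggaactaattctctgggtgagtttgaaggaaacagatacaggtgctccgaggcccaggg
Slamf6 near the start, chr1:173847794-173847823: catcaataggGGAACAGAAAgtctcagcga
Cd84 near a transcript start, chr1:173770685-173770714: aatcagctcacACTTCCTCcctccagctcc

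The Cd48 promoter, the only member promoter of the RefSeq table that an optimal peak overlapped, is given from RefSeq on GRCm38.p6 (chr1:171681742-171682041, plus strand, 250 bases before to 50 after the start). Its single motif match, a RUNX site, is in capitals.

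Cd48 promoter: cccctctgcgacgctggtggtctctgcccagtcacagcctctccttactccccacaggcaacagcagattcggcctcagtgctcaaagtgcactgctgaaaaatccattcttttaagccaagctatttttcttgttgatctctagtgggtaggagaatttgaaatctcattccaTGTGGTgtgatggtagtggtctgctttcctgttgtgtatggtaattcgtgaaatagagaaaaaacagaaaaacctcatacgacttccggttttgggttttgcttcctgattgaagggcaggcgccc

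How IRF4 summits were spread over the family was asked first. Slamf7 and Slamf6 had 6 summits each, Cd48 had 3, Ly9 and Cd84 had 1 each, and Slamf1 had none. Thus 5 of 6 members had a summit, beside 62.3% of all protein-coding genes, a share that 6 genes are too few to set apart. Slamf7 and Slamf6 had the same number of summits but highest signals of 36.3 and 187, and Cd48 with 3 reached 219. Ly9 and Cd84, with 1 each, had 24.4 and 68.8. No association between the number of summits and their strength was computed.

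**Figure D1:**
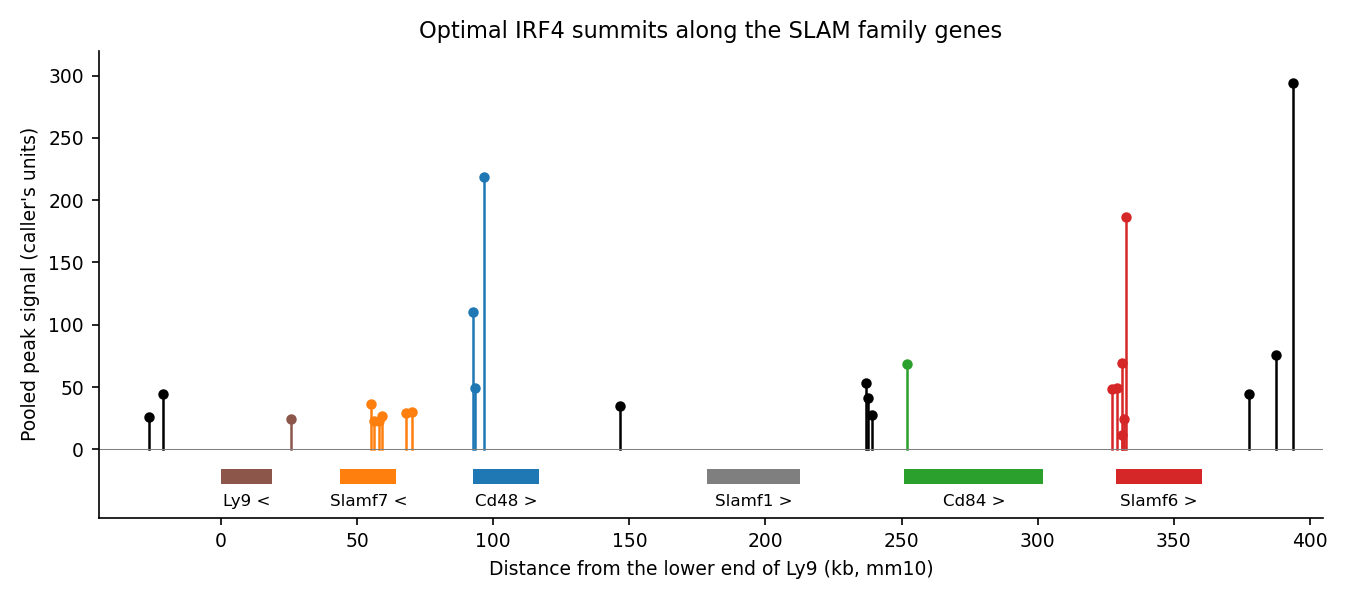
Signal of every optimal IRF4 summit (vertical axis, the caller's units) against distance from the lower end of Ly9 in kb. Bars are the genes with their direction of transcription, coloured stems are summits within 10 kb of the gene of that colour, and black stems lie outside that reach. The tallest coloured stems stand in Cd48 and Slamf6, and no stem stands over Slamf1.

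As the members differ in length, counts were also divided by the length of the gene and its flanks. Slamf7 had 14.8 summits per 100 kb, more than 95.1% of protein-coding genes, and Slamf6 had 11.7, more than 91.2%. Cd48 followed with 6.82 (more than 78.8% of genes), then Ly9 with 2.58 (51.9%) and Cd84 with 1.41 (42.9%). Slamf1, at 0, shared that value with 37.7% of genes. The median of the 6 members was 4.70 per 100 kb, against 2.34 over all protein-coding genes. Pooled over the family, with overlapping flanks counted once, there were 5.67 summits per 100 kb.

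**Figure D2:**
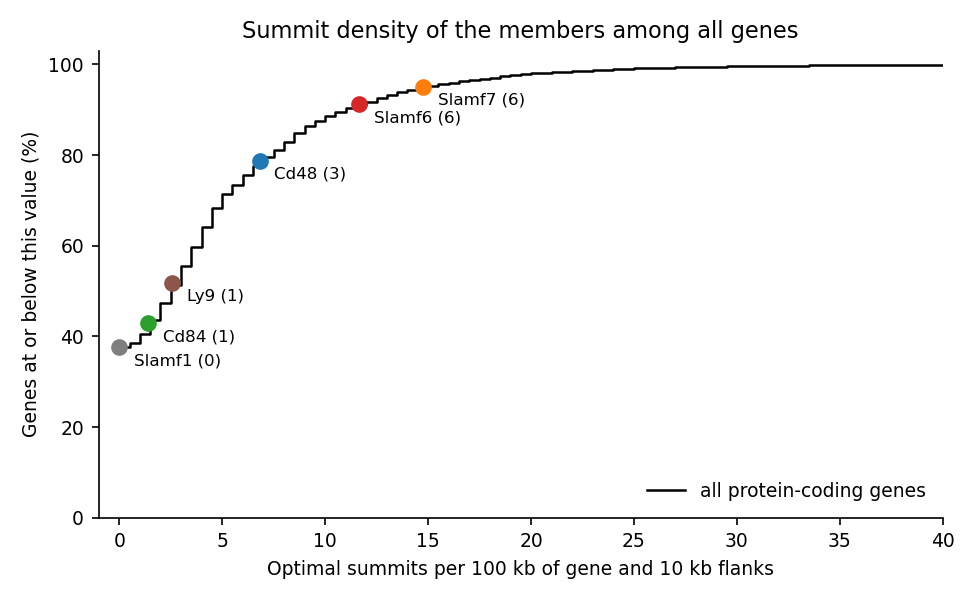
Cumulative share of protein-coding genes (vertical axis, percent) by optimal summits per 100 kb of gene and flanks (horizontal axis). Coloured points are the 6 members with their number of summits in brackets; Slamf7 and Slamf6 lie above 90% of genes, while Slamf1 sits at 0 with 37.7% of genes.

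Signal is the authors' value for each peak, and its scale is not stated. The strongest summit of each member ranged from 24.4 at Ly9 to 219 at Cd48. Over the 5 members with a summit the median of these highest values was 68.8, against 58.3 over all genes with a summit. The 17 summits had a median signal of 36.3, against 41.4 over all optimal peaks. With no flanks, or flanks of 5 or 25 kb, the member median lay above 41.4. They spread widely: 5 were at or above the 75th percentile of optimal peaks (66.2) and 6 at or below the 25th (29.4).

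Cd48, the gene of the lipid-anchored ligand, had the strongest peak of the family. On mm10 the gene (NCBI Gene 12506, plus strand) spans 171681245 to 171705258, and the peak lay at 171685021 to 171685183, 3109 bp after the start of the promoter table. Its signal of 219 ranked 1050 among optimal peaks. The signal was 82.8 in replicate 1 and 136.6 in replicate 2, a mean of 109.7 ± 38.0 (SD, n = 2). A further peak lay 752 bp before that start, which is 5 bp outside the longer RefSeq gene record (171681070 to 171681409, signal 110.4), with 52.6 in replicate 1 and 57.6 in replicate 2. The last, 53 bp after the start (171681875 to 171682214), overlapped the promoter shown above and had 49.3, with 25.4 in replicate 1 and 22.9 in replicate 2. In both replicates the site 3109 bp after the start was highest and the one 53 bp after it lowest, so the order of the 3 sites was the same. The highest Cd48 value exceeded that of 94.5% of genes with a summit.

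Slamf6 (NCBI Gene 30925, 171917458 to 171948958, plus strand) encodes Ly108, a receptor that binds itself between B and T cells. It had its 6 summits within 5230 bp around the start. The strongest lay 3672 bp into the gene (171921058 to 171921164, signal 187, rank 1644), with 79.2 in replicate 1 and 103.9 in replicate 2, a mean of 91.5 ± 17.5 (SD, n = 2). Nearest to the start was a peak 229 bp after it (171917521 to 171917860, signal 49.5), with 20.9 in replicate 1 and 37.1 in replicate 2. A peak 1985 bp after the start had 69.3, with 33.0 in replicate 1 and 39.6 in replicate 2. These 3 were higher in replicate 2, as most peaks of the list were.

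Other Slamf6 sites ran the opposite way. The peak 1558 bp before the start (signal 48.1) had 32.6 in replicate 1 and 16.2 in replicate 2. The peak 2857 bp after it (24.4) had 20.7 in replicate 1 and 7.09 in replicate 2, and was absent from the stricter conservative list. Their log2 ratios of replicate 2 to replicate 1, -1.01 and -1.54, lay below the 5th percentile of matched optimal peaks (-0.53). The remaining peak (11.5), 2188 bp after the start, was in the conservative list and overlapped the interval of its neighbour 203 bp away. It had no summit of either replicate within 100 bp. With a match distance of 250 bp all 17 member summits had both replicates, but that distance also takes in this neighbour.

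Slamf7 (NCBI Gene 75345, 171632403 to 171653037, minus strand) encodes a receptor known in human medicine as an antibody target on myeloma cells. Its 6 peaks were all weak, between 22.4 and 36.3, and none reached the median of optimal peaks. The start of the promoter table lies inside the gene record. From the upstream end, the sites lay 9862 and 7357 bp before the start and 1111, 2490, 4343 and 5296 bp after it, spread over 15158 bp. The strongest was the last of these (171643533 to 171643872), with 14.5 in replicate 1 and 18.1 in replicate 2. At the site 1111 bp after the start both replicates gave 13.6, whereas at 2490 bp they gave 7.19 in replicate 1 and 15.8 in replicate 2. The site 7357 bp upstream had 24.2 in replicate 2 and no summit of replicate 1 within 100 bp. Of the 6, 4 were in the conservative list. No summit lay within 1 kb of the start used here.

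Cd84 (NCBI Gene 12523, 171839697 to 171890718, plus strand) encodes a receptor that, like Ly108, binds itself in contacts of B and T cells. It had a single summit, 905 bp after its start (171840432 to 171840771, signal 68.8, rank 10403), with 31.3 in replicate 1 and 40.6 in replicate 2. Its signal lay above the 75th percentile of the optimal list, although the gene, the longest member, had the lowest density of the 5 with a summit. On mm9, where transcripts were annotated, the Cd84 summit lay 7 bp from the start of a transcript. That mm9 peak was weak, with a signal of 44.5 and rank 25196 among 27671 mm9 peaks.

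Ly9 (NCBI Gene 17085, 171588613 to 171607410, minus strand) encodes a receptor with a long extracellular part, known on lymphocytes as CD229. Its single optimal summit was 6797 bp upstream (171614037 to 171614376, signal 24.4, rank 38580), with 7.22 in replicate 1 and 15.3 in replicate 2, and was absent from the conservative list. The relaxed list of both replicates pooled, made as input for IDR and holding background as well as peaks, had a slightly higher entry 37 bp after the Ly9 start (signal 26.8). That entry had 10.6 in replicate 1, no summit of replicate 2 within 100 bp, and no place in the optimal list. Ly9 was thus the member whose call rested on the weakest peak. It had 0 summits among the 44058 strongest peaks of replicate 1 taken alone, and likewise of replicate 2 alone.

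Slamf1 (NCBI Gene 27218, 171767131 to 171801184, plus strand) encodes CD150, the founding member of the family, which in humans is an entry receptor for measles virus. No optimal summit fell in its 34.1 kb or the flanks. The nearest were 32011 bp below the gene (signal 34.4) and 24514 bp above it (53.2). The pooled relaxed list, which holds background as well as peaks, had 12 entries in reach of Slamf1, where the 6 members had 11 to 30. The highest of the 12 had a signal of 22.1, 20631 bp after the start of the gene record. Near it, within 100 bp, replicate 1 had 18.3 (rank 20733 in its list) and replicate 2 had 8.61 (rank 85981). The highest replicate 2 entry in reach lay elsewhere, 4602 bp before the gene in the pooled list, with 12.4 and no replicate 1 summit within 100 bp. With replicate 1 alone Slamf1 would have had 1 summit among the 44058 strongest, and with replicate 2 alone it would have had 0. The depth of the replicates is unknown, and the absence of a summit is not the absence of binding.

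**Figure D3:**
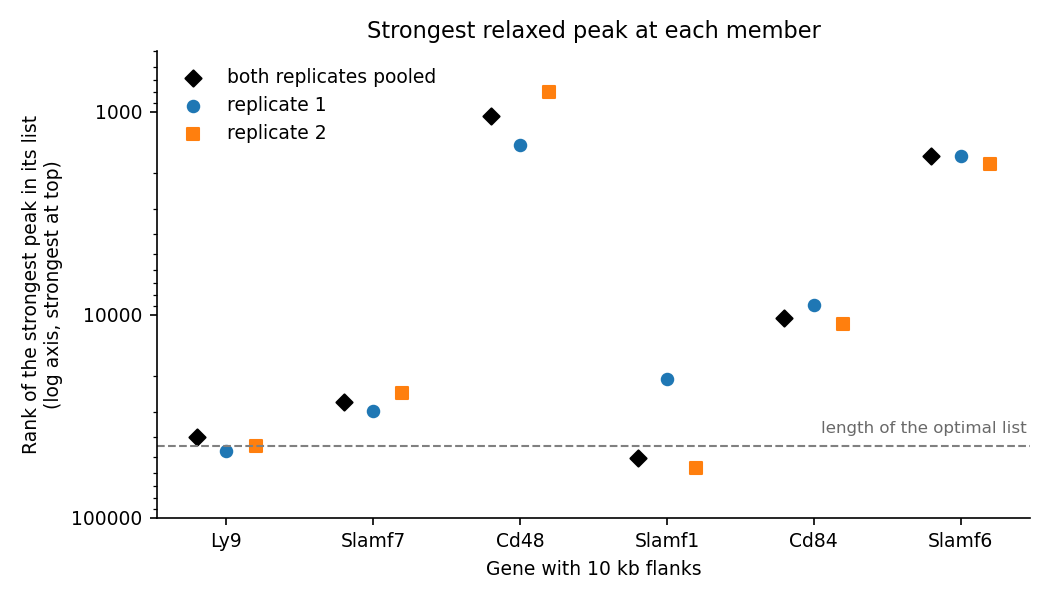
Rank of the strongest entry in reach of each member (vertical log axis, strongest at the top) in the pooled relaxed list and in those of replicates 1 and 2; the dashed line is the length of the optimal list. Cd48, Slamf6 and Cd84 lie well above the line in all 3 lists, Ly9 lies around it, and Slamf1 is above it in replicate 1 only. The 3 lists differ in length, so ranks describe each list by itself.

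The replicates were then compared over all member summits. Both had a summit within 100 bp at 15 of 17, beside 85.4% of all optimal peaks. Replicate 2 was higher at 11 of these 15, beside 82.8% of matched optimal peaks. The median log2 ratio of replicate 2 to replicate 1 was 0.38 over the member summits (range -1.54 to 1.13), against 0.53 over all matched optimal peaks. In the conservative list 13 of 17 appeared as the same interval, beside 72.3% of optimal peaks. The 4 that did not were the Ly9 summit, 2 of Slamf7 and 1 of Slamf6.

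**Figure D4:**
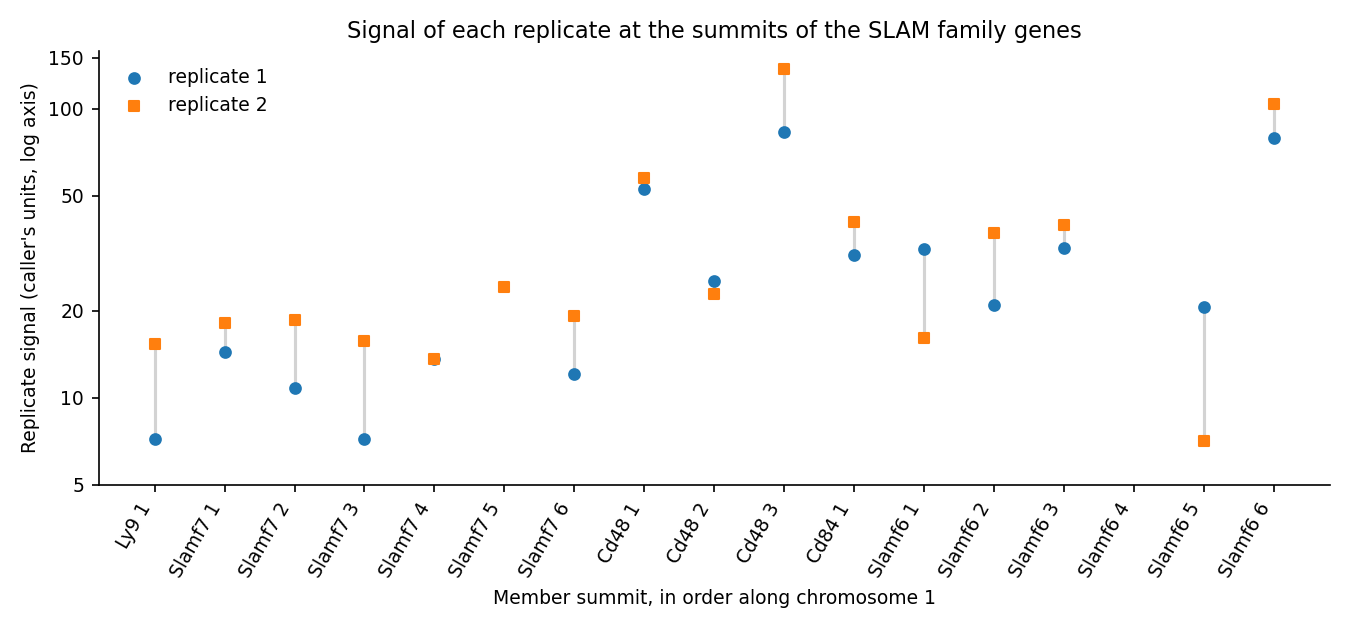
Signal at each of the 17 member summits (vertical log axis, the caller's units) in replicate 1 (circles) and replicate 2 (squares), in order along the chromosome and numbered within each gene. The third summit of Cd48 and the sixth of Slamf6 are highest in both replicates; a missing symbol means no summit of that replicate within 100 bp.

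Summits lay in and before the genes. Of the 17, 12 were inside a RefSeq gene body, 5 were upstream, and 0 were downstream. The same split was not computed over all optimal summits, so it marks no trait of the members. Within 1 kb of a start lay 4 of 17, a pair at Cd48 and 1 each at Cd84 and Slamf6, beside 17.0% of optimal summits on the chromosomes with starts in the table. The summit nearest to the edge of the 10 kb reach was that of Ly9, at 6797 bp. Just past the reach, upstream of Cd84, stood 3 summits at 11808, 13312 and 13999 bp, with signals of 27.3, 41.1 and 53.2. A lone summit (34.4) lay 29862 bp past Cd48. These 4 were all the optimal summits between the members that no gene took up.

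The motifs under the summits were searched on the separate mm9 list, made from both replicates together, because the genome sequence in use was mm9. Positions were not converted between builds. This list held 9 summits at 4 members, with 4 at Slamf6, 3 at Cd48, 1 at Slamf7, 1 at Cd84 and 0 at Ly9 and Slamf1, where 47.0% of protein-coding genes had one. Cd48 and Slamf6 again held the strongest peaks, at 380 in the Cd48 intron 3077 bp after the start and at 253 in the Slamf6 intron 3629 bp after it. Of the 9, 4 were in introns, 3 in untranslated exon sequence and 2 before a gene, a split not computed over all mm9 summits. The median signal was 76.1, against 70.1 over the 27671 peaks of that list.

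Within 50 bp of the summit, on either strand, 10 motifs were sought. EICE, the ETS-IRF composite element, was GGAA and GAAA with 2 bases between them. It was found at 1 of 9 member summits, or 11.1% (0.281 to 48.2, exact Clopper-Pearson 95% interval), against 8.68% of all summits and 0.918% of windows 300 bp away. It lay at the Slamf6 summit near the start, 18 to 9 bp before the summit, as the 10 capitals shown above. The AP-1 site TGANTCA was at 1 of 9, the strongest Cd48 site, 3 to 9 bp after the summit, against 16.04% of all summits. In windows 300 bp away it was at 1 of 9 for the members as well, against 2.83% of all. The PU.1 site GAGGAAGT was at the Cd84 summit alone, read on the opposite strand, against 4.93% of all summits. That window also held the RUNX site TGTGGT at 2 places, against 13.0% of all summits with at least 1. Among the 9 member windows 300 bp away, RUNX was in 1, and EICE and PU.1 were in 0.

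The remaining 6 motifs were at 0 of 9, a count that allows a share of up to 33.6%. They were ISRE, which is GAAA repeated after 2 bases (5.79% of all summits); the AP-1-IRF composite elements (2.23%), in which GAAA adjoins an AP-1 site or TTTC stands 4 bases before one; and the octamer ATGCAAAT (2.61%). The others were the NF-kB site, GGGA with CC after 4 bases (10.1%), the E-box CAGCTG (8.72%), and the EBF site, TCCC with GGGA after 2 bases (1.15%). Of these 6 motifs, only ISRE was in member windows 300 bp away, at 1 of 9. An AP-1-IRF element always contains the AP-1 site. At least 1 of the 10 motifs was at 3 of 9 member summits, against 54.9% of all summits, and 3 of 9 member windows 300 bp away held one, against 21.0% of all. The strongest Slamf6 site had none of them. No difference between these shares was tested.

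Looser forms of EICE were counted after the exact matches had been seen. With 1 mismatch allowed in the 8 fixed bases, 6 of 9 member summits had a match, against 34.1% of all summits. The same held for 4 of 9 member windows 300 bp away, against 14.7% of all such windows. The Cd84 window had TGAAGTGAAA 25 to 34 bp after the summit. The closest forms in the strongest Cd48 and Slamf6 windows had 2 mismatches.

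**Figure D5:**
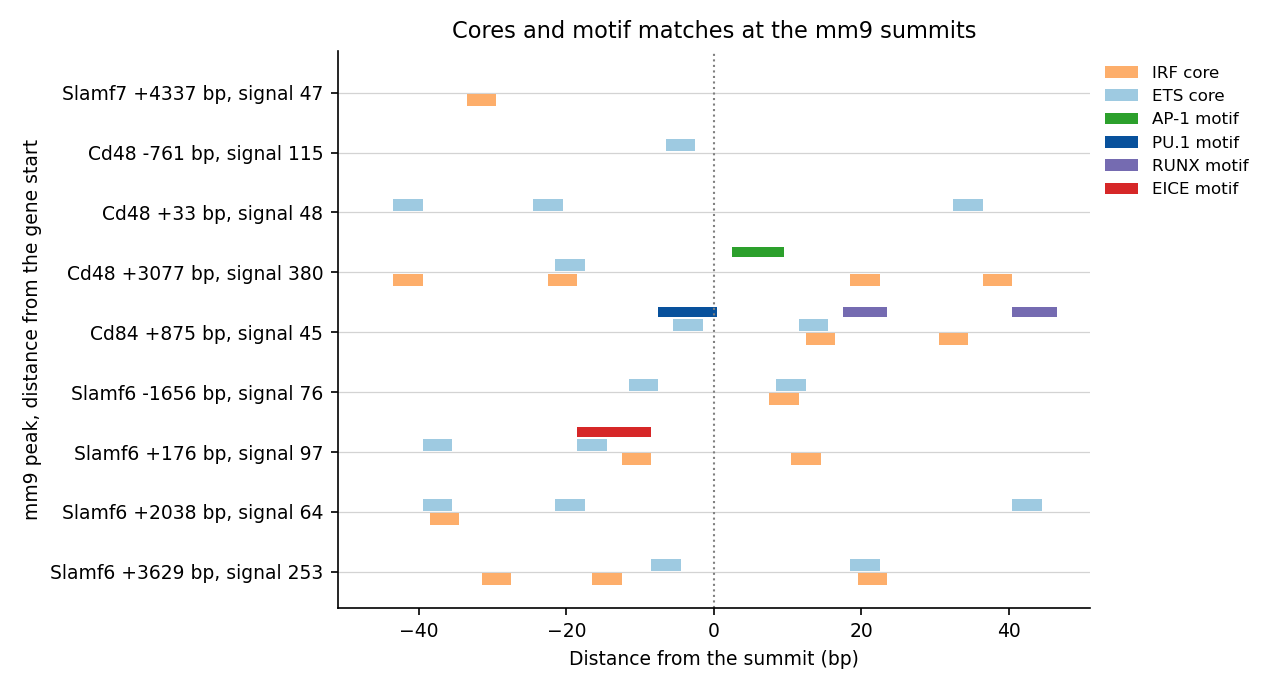
Positions of ETS cores (GGAA), IRF cores (GAAA) and motif matches within 50 bp of the 9 mm9 member summits, on either strand, with distance from the summit in bp on the horizontal axis. Each row is 1 peak, named by its gene, its distance from the gene start and its signal; the EICE match is in the Slamf6 row at 176 bp and the AP-1 match in the Cd48 row at 3077 bp.

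Of the 5 members with an entry in the RefSeq promoter table, none had EICE, ISRE or an AP-1-IRF element in the 300 bases. Over all promoters of the table the shares were 2.72%, 3.44% and 0.244%, from which 5 promoters are too few to be set apart. The AP-1 site was in the promoters of Slamf7 and Cd84, against 7.81% of the 32851 promoters of the table, and the NF-kB site in those of Cd84 and Slamf6, against 20.7%. RUNX sites were in those of Cd48 and Cd84 (16.8% of all) and the E-box in those of Slamf7 and Slamf1 (16.3%).

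Other genes of the pathway were taken from a fixed list of 12. Of these, 10 had an optimal summit, beside 62.3% of all protein-coding genes. Their median was 4.96 summits per 100 kb, against 2.34 over all such genes, and their median highest signal was 73.0. Inpp5d, the gene of the phosphatase SHIP1 that opposes receptor signalling, stood highest with 11 summits and a top signal of 254, with 112.6 in replicate 1 and 140.5 in replicate 2. Csk, the kinase that restrains Src family kinases, had 7 and a top of 142, with 72.9 in replicate 1 and 74.4 in replicate 2. Ptpn6, which encodes the phosphatase SHP-1, had 9 summits and the highest density of the list, 23.7 per 100 kb. Fyn, the kinase that SAP recruits, had 7 (top 63.4), Ptpn11 had 5 (75.5) and Inppl1 had 2 (34.3).

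Of the other receptor genes, Slamf9 had 4 (top 97.2), Cd244a had 2 (44.4) and Slamf8 had 1 (70.4), which also lay in reach of Fcrl6. Among adaptor genes Sh2d1b1 had 1 (30.8), while Sh2d1a and Sh2d1b2 had none. Cd48 and Slamf6 were therefore above the other 3 receptor genes in highest signal, and Slamf1 was alone among the 9 receptor genes in having no summit.

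The members were set beside their neighbours and the Fc receptor genes, of which several lie on the same chromosome. Of 41 other protein-coding genes within 500 kb of the cluster, 37 had a summit, with a median of 4.47 per 100 kb and a median highest signal of 64.1. Of 12 Fc receptor genes, 11 had one, with a median of 8.16 per 100 kb and a median highest signal of 60.8. Over all protein-coding genes 62.3% had a summit and the median was 2.34 per 100 kb. The 6 members, with 5 of 6 and 4.70 per 100 kb, were close to their neighbours in both. Cd244a and Fcer1g are in more than 1 of these lists, neighbouring genes often share a summit, and no difference between these lists was tested. A peak stronger than any at a member, named after its value was seen, lay outside the reach. It stood 33468 bp past the end of Slamf6, between Slamf6 and Vangl2 (171982318 to 171982553, signal 294, rank 346). Its signal was 126.3 in replicate 1 and 171.3 in replicate 2.

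Among marker genes, 7 of 7 for B cells, 4 of 5 for T cells and 2 of 3 for myeloid cells had an optimal summit in reach. The share over all protein-coding genes was 62.3%, and no difference from it was tested. Binding does not measure expression, so these counts name no cell type, and the files give no RNA level for any SLAM gene.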

How the data were processed

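IRF4 ChIP-seq of 2 replicates of CH12.LX was analysed from 6 deposited peak lists. Per the deposited file descriptions, alignments to mm10 and 1 more file gave a relaxed list, with background included, for replicate 1, for replicate 2 and for their pool. The optimal and conservative IDR lists derive from those, and the mm9 list from both mm9 alignments with no control named. The signal of each peak is the authors' caller's value; its caller and the aligner are not stated in the labels or headers, and depth is unknown. The lists held 44058 optimal, 35879 conservative, 300000 pooled, 215095 replicate 1, 300000 replicate 2 and 27671 mm9 peaks.

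A summit is the peak start plus its offset, printed 1-based. Gene bodies were RefSeq GRCm38.p6 records. Starts and promoters came from the RefSeq promoter table, which had 5 of the 6 members; for Ly9 the end of its gene record on the strand given by GENCODE (mm9) was used. Alternative starts are missed. The nearest replicate summit within 100 bp gave replicate signals. Motifs were matched on NCBIM37 (mm9) sequence. Intervals cover counting error only.

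The members and lists were chosen with earlier results of these data known. Genes named are the members, the fixed pathway, neighbour, Fc receptor and marker lists; summits given in full are the strongest of each member and those within 1 kb of a start. The counting was tested on simulated data. Figures were drawn with matplotlib 3.10.9, and values computed with pandas 2.3.3, scipy 1.17.1 and numpy 2.4.6 under Python 3.11.15.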

Additional observations from a re-analysis of the deposited data

How the results depend on the processing

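No paired analysis was possible because the labels give 1 group, so there is no contrast to pair. With optimal peaks at or above the median signal only, the members held 8 summits in place of 17, at 3 genes in place of 5, or 2.67 per 100 kb in place of 5.67; Ly9 and Slamf7 then had none. The median signal of member summits, 36.3, was 49.3 in the conservative list, 42.8 with no flanks, 48.1 with flanks of 5 kb and 42.7 with flanks of 25 kb. Only the first of these values lay below the 41.4 of all optimal peaks, so that order depended on the setting. The median over all conservative peaks was not computed. With motif windows of 100 bp either side, 6 of 9 mm9 member summits held a motif in place of 3. Over all mm9 summits the share was 70.2% in place of 54.9%. Leaving out each replicate in turn meant taking the 44058 strongest relaxed entries of the other, without IDR. This gave 15 to 17 summits, 4 to 5 members with one and 5.0 to 5.67 per 100 kb. The members themselves changed. Ly9 had 0 either way, and without replicate 2 Slamf1 had 1, Slamf6 had 8 and Slamf7 had 4. With flanks of 25 kb all 6 members had a summit, including 1 at Slamf1, 4 at Cd84 and 2 at Ly9. The share of all protein-coding genes with a summit was not computed for these flanks or for the median signal cut. The member counts at these settings therefore have no matched share beside them. Ly9 had none in the conservative list or with flanks of 5 kb. The cause was not tested. Unknown depth limits any statement about weak or missing peaks.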
